A study of Mus musculus with 4 samples.

Results

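The regions described here are the stretches of mouse autosomal DNA, in and around gene promoters, that gave a strong array signal in intestine at both ages studied, 32 and 3 months. A region is a run of array probes that carry the same gene name and lie at most 1000 bp apart. It was kept when at least 2 of its probes were well above background in either dye channel, and it was a member when the median log2 processed signal over those usable probes was at least 12 (a signal of 4096) at 32 months and also at 3 months. Of 14835 autosomal regions with at least 2 usable probes, 732 met this rule, which is 4.93%. The measured signals chose the members, so their brightness and the ratio between their ages are given as descriptions, with no test.

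Genomic DNA came from intestine of C57BL/6 mice of the Jackson Laboratories, aged 32 months or 3 months, with no mutant allele or treatment named. The 32-month DNA was labelled with Cy5 and the 3-month DNA with Cy3, and both were hybridised together to 2 custom Agilent arrays, the first labelled as chromosomes 1 to 8 and the second with the later ones. By the probe positions the first array also held 84 regions of later chromosomes, 2 of them members. Each array therefore holds 1 sample per age, with no replicate and no dye swap. The sources used here do not say how many animals each sample pools, their sex, which part of the intestine or which of its cells was taken, or how DNA was selected by methylation. The first array's scanner header contains the letters RMCA, which are left unexplained there. No difference between the ages could be tested, and age and dye cannot be told apart.

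DNA methylation in mammals is mostly the addition of a methyl group to the cytosine of a CpG dinucleotide. Most CpGs of the genome are methylated, while CpG-dense promoters, the CpG islands, are usually free of methylation. Methylated promoters are well known from imprinted genes, from germline genes in body tissues and from CpG-poor promoters of genes used by few cell types. Developmental transcription factor genes often have CpG islands bound by Polycomb proteins, and such islands are known to gain methylation with age. The values below are fluorescence signals, not methylation levels.

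Probe sequences show how far the members differ in base content, and the capitals mark each CpG. The Myog probe lay at chr1:136106454-136106500, the Cdkn1c probe at chr7:143271225-143271279, the Rbmxl1/Slc10a7 probe at chr8:81405315-81405359 and the Gpx2 probe at chr12:77714822-77714869, in the files' positions, whose genome build is not stated and whose strand is as deposited. The first belongs to the brightest member, the next to an imprinted gene, and the other 2 come from the CpG-rich and CpG-free ends of the set.
Myog: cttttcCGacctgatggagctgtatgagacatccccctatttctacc
Cdkn1c: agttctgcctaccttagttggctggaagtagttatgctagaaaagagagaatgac
Rbmxl1/Slc10a7: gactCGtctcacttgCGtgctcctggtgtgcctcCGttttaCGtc
Gpx2: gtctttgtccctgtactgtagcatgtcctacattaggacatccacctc
The Myog probe had a log2 signal of 19.31 at 32 months and 18.93 at 3 months with 1 CpG. The Cdkn1c probe had 18.68 at 32 months and 18.28 at 3 months with no CpG. The Rbmxl1/Slc10a7 probe had 14.14 at 32 months and 14.07 at 3 months with 4 CpGs. The Gpx2 probe had 16.81 at 32 months and 17.75 at 3 months with no CpG. A high signal was thus read from probes with several CpGs and from probes with none.

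Promoter sequences are shown for the 6-base palindrome CCCGGG, in capitals, which the restriction enzymes SmaI and XmaI recognise and which turned out to be common near the members. They are RefSeq promoter windows of 300 bases on assembly GRCm38.p6, tied to a region where the window holds at least 1 of its probes letter for letter. The windows are Madcam1 at chr10:79664309-79664608 on the plus strand, Zfp112 at chr7:24112070-24112369 on the plus strand, Cartpt at chr13:99900634-99900933 on the minus strand and, for a gene that is no member, Dazl at chr17:50293571-50293870 on the minus strand.
Madcam1: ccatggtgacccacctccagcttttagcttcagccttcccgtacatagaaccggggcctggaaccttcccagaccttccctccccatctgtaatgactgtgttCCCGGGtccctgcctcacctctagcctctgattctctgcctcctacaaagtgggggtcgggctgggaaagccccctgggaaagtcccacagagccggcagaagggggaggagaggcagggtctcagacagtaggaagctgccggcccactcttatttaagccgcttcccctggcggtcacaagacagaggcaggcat
Zfp112: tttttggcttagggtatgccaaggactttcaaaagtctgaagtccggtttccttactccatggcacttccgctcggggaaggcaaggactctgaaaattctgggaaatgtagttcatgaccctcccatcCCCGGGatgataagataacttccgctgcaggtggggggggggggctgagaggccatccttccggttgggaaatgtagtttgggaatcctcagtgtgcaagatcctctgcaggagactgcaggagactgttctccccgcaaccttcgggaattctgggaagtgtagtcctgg
Cartpt: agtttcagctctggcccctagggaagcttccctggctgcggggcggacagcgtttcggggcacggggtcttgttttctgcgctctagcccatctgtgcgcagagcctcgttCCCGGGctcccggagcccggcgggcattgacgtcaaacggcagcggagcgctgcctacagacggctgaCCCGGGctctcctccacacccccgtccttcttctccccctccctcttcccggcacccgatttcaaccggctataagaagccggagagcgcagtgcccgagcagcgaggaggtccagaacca
Dazl: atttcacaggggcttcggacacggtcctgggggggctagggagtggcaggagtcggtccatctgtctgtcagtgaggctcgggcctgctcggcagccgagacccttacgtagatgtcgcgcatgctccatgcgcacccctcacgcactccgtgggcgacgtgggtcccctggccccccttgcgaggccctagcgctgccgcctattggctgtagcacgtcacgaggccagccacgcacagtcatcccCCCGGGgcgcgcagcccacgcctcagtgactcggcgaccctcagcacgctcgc
Madcam1 and Zfp112 have 8 CpGs in their windows, Cartpt has 26 and Dazl has 28. Cartpt holds CCCGGG at 2 places and the other 3 windows at 1 place each.

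The members spread over a wide range above the threshold, with most of them close to it. Their median log2 signal was 13.31 at 32 months and 13.06 at 3 months, against 8.65 at 32 months and 8.64 at 3 months in the other 14103 autosomal regions. By the lower of both ages, 423 members lay between 12 and 13, 216 between 13 and 15, and 93 at 15 or more, of which 27 reached 17. Just inside the threshold stood Cnot11, Tprn, Thumpd3, Avpr1b and Taf8, with lower medians of 12.001 to 12.008. Just outside stood a Kcnc1 region, Npas1, Aebp1, Myo5a and Fign, at 11.991 to 11.998, and 827 regions lay between 11 and 12. At 32 months 934 regions reached the threshold and at 3 months 861, so that 202 were bright at 32 months only and 129 at 3 months only. None of the 507 negative control spots of an array reached it, the highest being at 9.35, and no probe was saturated.

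**Figure D1:**
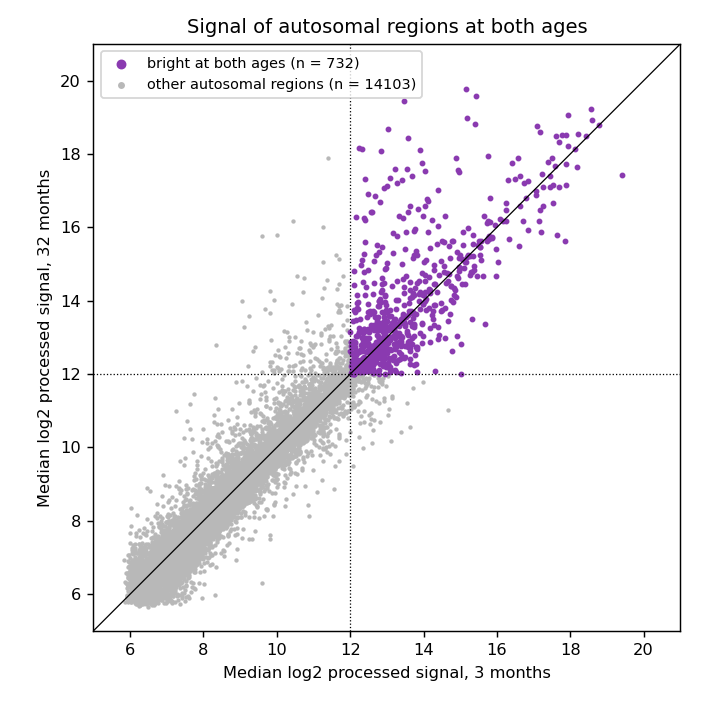
Median log2 processed signal of each autosomal region at 32 months (y axis) against 3 months (x axis), 1 point per region. Dotted lines mark the threshold of 12 and the solid line equal signal. The 732 members fill the upper right, and several lie far above the line at 32 months.

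The brightest members with at least 3 usable probes belonged to genes of unrelated roles. Myog, a transcription factor of skeletal muscle differentiation, led with 19.23 at 32 months and 18.57 at 3 months (chromosome 1, 136105594 to 136106717, promoter and gene start). Nt5dc3, a 5′-nucleotidase domain protein, had 18.78 at 32 months and 18.79 at 3 months. The files place it on chromosome 19, whereas RefSeq places the gene on chromosome 10, so the name is uncertain. Clca2, of the calcium-activated chloride channel regulator family and named Clca5 on the array, had 18.93 at 32 months and 18.59 at 3 months. Cebpe, a transcription factor of granulocyte maturation, had 19.05 at 32 months and 17.93 at 3 months. Def6, a guanine nucleotide exchange factor of lymphocytes, had 18.53 at 32 months and 18.22 at 3 months.

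Madcam1, the adhesion molecule of gut vessels that homing lymphocytes bind, had 18.51 at 32 months and 17.77 at 3 months. Aen, an apoptosis-enhancing nuclease, had 18.14 at both ages. Cdkn1c, an imprinted inhibitor of cyclin-dependent kinases, had 18.21 at 32 months and 17.95 at 3 months. The other 4 of the 12 brightest were 4930578I06Rik, Mical3, Slc25a34 and Nrbp2, at 18.31 to 18.76 at 32 months and 17.10 to 18.42 at 3 months. Nrbp2 alone among the 12 passed the call for a higher signal at 32 months, explained below. CpG contents in these 12 ran from 0.46 per 100 probe bases in Clca2 to 5.35 in Cdkn1c.

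High signal was often confined to a stretch of the region. All usable probes were at 12 or more at both ages in 172 of the 732 members, and 2119 of their 2957 usable probes were. The range over probes of 1 member exceeded 3 log2 units in 495 members and 6 in 284. The SD over probes at 32 months had a median of 2.09 in members and 1.68 in the other regions, and at 3 months of 2.06 and 1.67. In Myog, 3 neighbouring probes read 19.23 to 19.41 at 32 months and 18.57 to 18.93 at 3 months, while the probe at -532 bp from the centre read 6.71 at 32 months and 6.73 at 3 months. In Cebpe 3 probes read 19.05 to 20.002 at 32 months and 17.93 to 18.44 at 3 months, and the remaining 2 read 8.62 and 8.78 at 32 months and 8.44 and 9.25 at 3 months. At both ages the same probes of these regions were bright and the same were dim, while the difference between the ages varied along Cebpe, with a log2 ratio of 1.91 at its brightest probe at 32 months and -0.33 at the opposite edge.

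Cdkn1c and Def6 were bright throughout. The 7 probes of Cdkn1c read 16.79 to 18.73 at 32 months and 16.21 to 18.28 at 3 months, although 4 of them held 3 to 7 CpGs and the other 3 held none. The 5 probes of Def6 read 17.87 to 19.36 at 32 months and 17.61 to 19.25 at 3 months. Guca2a, the gene of the gut peptide guanylin, had an even, moderate level, 13.07 to 14.16 at 32 months and 13.12 to 14.28 at 3 months over 7 probes. A region can also miss the rule with bright probes in it. Dazl, a germ cell RNA-binding protein, had a median of 10.50 at 32 months and 10.99 at 3 months, yet its probe at -530 bp from the centre read 19.77 at 32 months and 18.59 at 3 months. Likewise 1 of 3 probes of Ddx4/Slc38a9, named for a germ cell helicase and a lysosomal amino acid transporter, read 21.08 at 32 months and 20.03 at 3 months beside a region median of 10.83 at 32 months and 11.03 at 3 months.

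**Figure D2:**
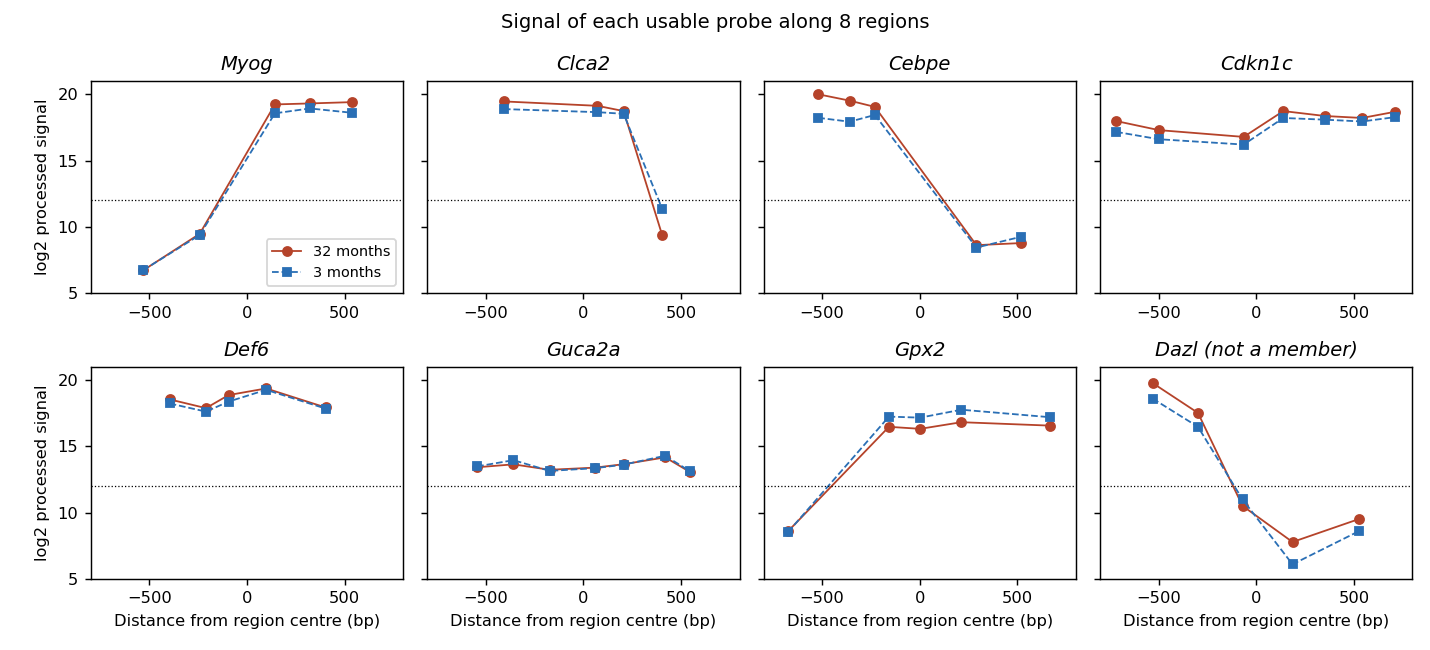
Log2 processed signal of each usable probe (y axis) against its distance from the region centre in bp (x axis) in 8 regions, at 32 months (circles) and 3 months (squares), with the threshold of 12 dotted. Myog, Clca2, Cebpe and Gpx2 drop at an edge, Cdkn1c, Def6 and Guca2a stay above the threshold throughout, and Dazl is bright at an edge only.

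Few genes with several regions held 2 members. Counting a gene under its own name and under joint names of divergent genes, 1576 genes had 2 or more regions and 196 of them held a member. Of these, 9 held 2 members, namely Arpc4, Ermap, Ggnbp1, Krtcap2, Nphs1, Nudt22, Rbmxl1, Slc5a6 and Stra8. The 221 other regions of these genes that were no members had a median log2 signal of 8.96 at 32 months and 8.88 at 3 months, and 156 of them were below 10 at both ages. Being no members, they had to be below 12 in at least 1 age. All 14103 autosomal regions that were no members had medians of 8.65 at 32 months and 8.64 at 3 months. Mest, an imprinted gene, had 12.84 at 32 months and 13.04 at 3 months in the member and 9.17 at 32 months and 9.14 at 3 months in its second region. The nearest region under another array name, which can be a joint name of the same gene, was bright more often for members at every distance limit. Counting each pair from both sides, it was bright for 19 of 131 members (14.5%) and 113 of 1927 other regions (5.86%) within 2000 bp, and for 11.5% of members and 5.84% of others within 10000 bp. Within 50000 bp it was bright for 45 of 445 members (10.1%) and 412 of 9265 others (4.45%), and with no limit for 9.29% of members and 4.53% of others. A pair chosen after its values were seen is Stra8, a meiosis gene, at 15.46 at 32 months and 15.53 at 3 months, and the Wdr91/Stra8 region 79 bp away, at 14.90 at 32 months and 15.12 at 3 months.

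Most members had similar signal at both ages, though a smaller share of them than of all regions. The log2 ratio of a region is the median over its usable probes of 32 over 3 months, centred on each array's median, and so is not the difference of the 2 medians above. It lay between -0.5 and 0.5 in 422 of 732 members and in 12839 of all 14835 regions. Its median was 0.10 in members (0.03 on array 1, 0.25 on array 2) and 0.02 over all regions. A region was called higher or lower when its ratio was past 1, which is 2-fold, and every usable probe lay on the same side of 0. By this call 90 members (12.3%) were higher at 32 months, where 2.05% of all autosomal regions were, and 19 (2.60%) were lower, where 0.519% of all were; 623 were neither. Because the rule used both ages, nothing is read from these shares. With a normexp background correction 44 of 143 bright regions (30.8%) were called higher, where 2.82% of all regions were. None of the 143 was called lower, where 0.054% of all regions were. The corrected signals were only shifted to the medians of the processed ones, so 12 is not the same cut there.

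Since the rule required a log2 signal of 12 at 3 months too, a large ratio mostly implies a 32-month signal far above it. Trhde, a peptidase that degrades thyrotropin-releasing hormone, had 19.78 at 32 months and 15.17 at 3 months (log2 ratio 4.75). Six6, a homeobox factor of eye development, had 18.15 at 32 months and 12.25 at 3 months (5.23). Alk, a receptor tyrosine kinase of the nervous system, had the largest ratio, 5.89, with 19.46 at 32 months and 13.47 at 3 months. It was not called, since 1 of its 4 probes had a log2 ratio below 0, at a signal of 7.92 at 32 months and 8.23 at 3 months. Vstm2b, Sdk2 and Selenoi followed with ratios of 4.88, 4.60 and 4.52. Selenoi was not called either, as its lowest probe ratio was -0.27. In the other direction, Cbwd1 had 13.37 at 32 months and 15.67 at 3 months (log2 ratio -2.80). Espn, an actin-bundling protein of hair cells and microvilli, had 15.79 at 32 months and 17.64 at 3 months (-1.75). Caskin2/Tsen54, Il23a/Pan2, Dph1/Rtn4rl1 and Dok7 had ratios of -1.80 to -1.45. Caskin2/Tsen54 and Il23a/Pan2 were not called, as their highest probe ratios were 2.81 and 0.997.

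Members held more CpGs than the other regions at the median, but CpG content peaked around the threshold and fell toward the brightest members. The median CpG content of usable probes was 2.54 per 100 bases in members, with quartiles of 1.40 and 4.11, against 1.90 in the other regions, with quartiles of 0.93 and 3.11. Among regions that were no members, it was 1.34 where the lower median signal was under 8 and 2.00 between 8 and 10. It was 2.56 between 10 and 11 and 2.91 between 11 and 12. In members it was 3.04 between 12 and 13, 2.44 between 13 and 15, and 1.35 in the 93 members at 15 or more. The highest contents among members with at least 3 usable probes were in Rbmxl1/Slc10a7 (9.63), Grid1 (8.89), a glutamate receptor of the delta class, Dnajb4/Fubp1 (8.89), an unnamed region at 116303432 to 116304038 on chromosome 6 (8.76) and Fibcd1 (8.33). Their signals were moderate, 12.09 to 15.26 at 32 months and 12.18 to 12.94 at 3 months.

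At the other end 30 members had no CpG in any usable probe, of 1403 such regions (2.14%). Among them were Ticam1, the Toll-like receptor adaptor TRIF, Gpx2, the gastrointestinal glutathione peroxidase, and Stpg2, Pear1 and Pbld1. Gpx2 had 16.46 at 32 months and 17.18 at 3 months, with 4 of 5 probes at 16.31 to 16.81 at 32 months and 17.16 to 17.75 at 3 months. Since many members tie at 0 CpG, these 5 were ordered by brightness. All 30 lay at 12.05 to 17.09 at 32 months and 12.29 to 17.44 at 3 months.

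The share of regions that were members grew with CpG content, and with GC content more steeply. It was 2.86% of regions with under 1 CpG per 100 bases and 18.8% of the 69 regions with 8 or more. It was 1.08% of regions with under 35% GC and 35% of the 60 regions with 60% GC or more. The median GC content was 49.2% in members and 44.9% in the others. Within a GC class the share did not grow steadily with CpG content. For regions under 45% GC it was 2.17, 2.43, 1.96 and 1.09% from the lowest to the highest of 4 CpG classes. From 45 to under 50% GC it was 4.61, 4.94, 4.97 and 3.28%, and at 50% GC or more 10.3, 15.8, 12.8 and 14.2%. Probes of higher GC content also bind labelled DNA more strongly in general, and the part of this in the result was not tested. With a normexp background correction, 143 regions stayed at 12 or more, all of them members, and their median CpG content was 1.45, below that of all regions (1.92).

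**Figure D3:**
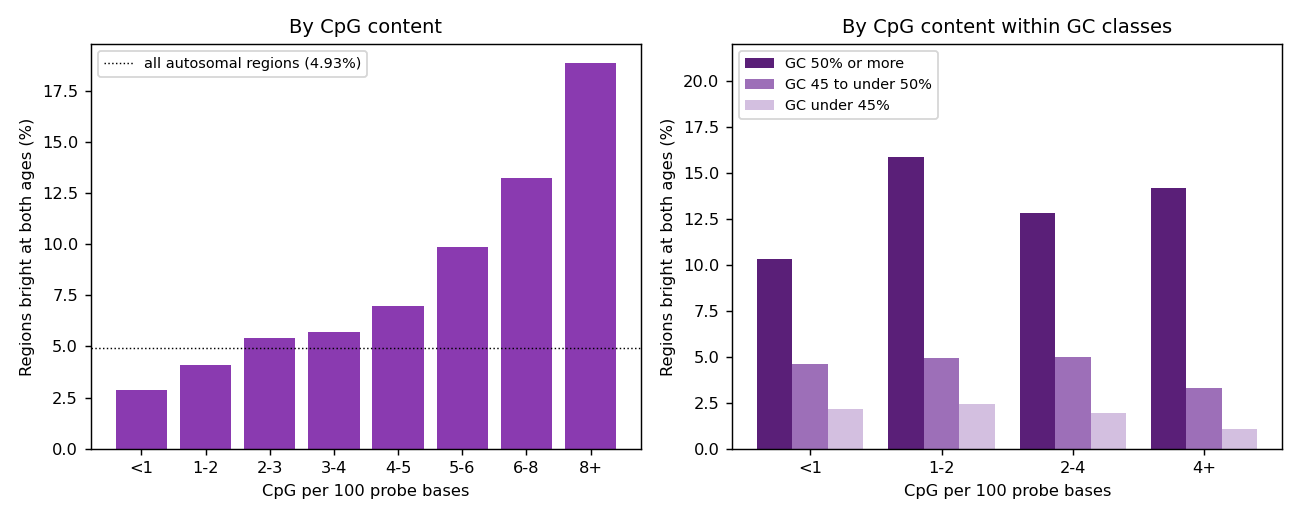
Share of autosomal regions that were bright at both ages (y axis, %) by CpG per 100 probe bases, over all regions (left, with 4.93% dotted) and within 3 classes of GC content (right). The rise from 2.86% to 18.8% on the left has no steady counterpart inside the GC classes.

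The palindrome CCCGGG was more frequent in the promoter windows of members than in those of other regions. RefSeq windows were matched to 355 members and 6738 other regions, with the same gene symbol for 6339 of these 7093. CCCGGG was in 147 of 355 member windows (41.4%) and in 1116 of 6738 others (16.6%), and in 13.5% of all 32851 RefSeq promoter windows of that length. A palindrome reads the same on both strands, so 1 search covers both. The other 7 palindromes of 6 bases made of C and G only were searched in the same way, overlaps counted, and none had so large a ratio of shares. GCCGGC was in 22.3% and 13.4%, CGGCCG in 20% and 12.6%, CGCGCG in 20.8% and 14.1%, and GGCGCC in 21.1% and 16.0% of member and other windows. GGGCCC, with the letters of CCCGGG in another order, was in 19.4% and 14.8%, CCGCGG in 18.9% and 14.5%, and GCGCGC in 22.5% and 17.9%. The ratio was 2.50 for CCCGGG and 1.26 to 1.66 for the other 7. The inner 4 bases, CCGG, were in 84.8% of member and 71.3% of other windows. Of all promoter windows, GCCGGC was in 10.9%, CGGCCG in 10.3%, CGCGCG in 11.3%, GGCGCC in 11.9%, GGGCCC in 12.3%, CCGCGG in 11.5%, GCGCGC in 13.6% and CCGG in 52.8%.

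Counted the other way, 11.04% of regions with 1 CCCGGG and 14.5% of those with 2 or more were members, against 3.57% of those with none. The difference was present in every class of base content examined. Of regions whose probes had under 45% GC, 5.91% were members with the palindrome and 1.88% without it. At 45 to under 50% these shares were 9.95 and 2.69%, and at 50% or more 22.8 and 11.02%. In 6 classes of window CpG content the share was 8.51 to 20% with it and 1.78 to 6.06% without it, and higher with it in each class. On array 1 it was 12.1% with it and 4.64% without it, and on array 2 it was 11.1 and 2.35%. By brightness, CCCGGG was in 10.2% of windows of regions under 8 in their lower median signal, 38.3% between 11 and 12, 42.7% between 12 and 13, 42.3% between 13 and 15, and 34.0% of 47 windows at 15 or more.

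**Figure D4:**
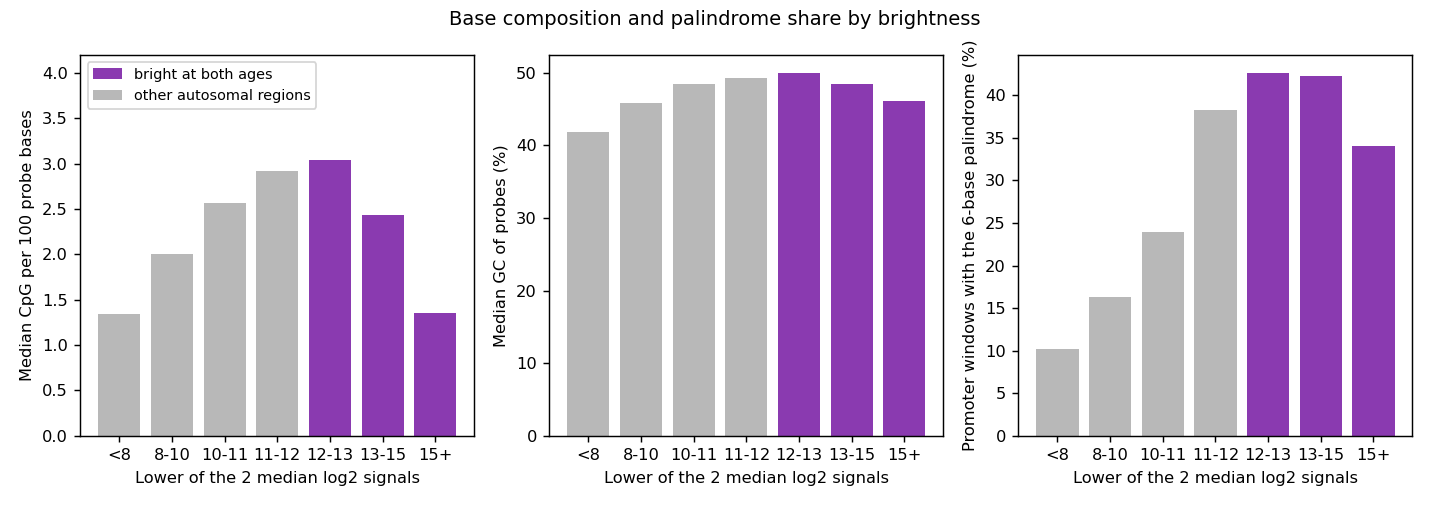
Median CpG per 100 probe bases (left), median GC of probes in % (middle) and share of matched promoter windows with CCCGGG in % (right), in classes of the lower of a region's 2 median log2 signals. CpG content peaks at 3.04 between 12 and 13 and is 1.35 at 15 or more, while the palindrome's share stays between 34.0% and 42.7% in the members.

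The palindrome was neither present near all members nor limited to them. Myog, Clca2, Def6 and Gpx2 had no CCCGGG in their matched windows, which says only that these letters are not in those 300 bases. Dazl had the palindrome and was no member. Zfp112, a zinc finger protein, had 14.97 at 32 months and 14.29 at 3 months, with the dimmest of its 3 probes at 8.13 at 32 months and 8.36 at 3 months. Among members with a window, CCCGGG was in 15 of 37 called higher, 7 of 12 called lower and 125 of 306 with neither call.

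By position class, as the array design gives it, the share of members was 6.00% of 2266 regions inside genes only, 4.85% of 8644 that span promoter and gene, 4.78% of 2427 with promoter only and 4.58% of 1004 between divergent genes. It was 3.61% of 83 downstream regions and 2.81% of 392 of unknown class. By chromosome it ran from 2.90% on chromosome 13 to 7.72% on chromosome 5. The first array held 441 members (5.86% of its regions) and the second 291 (3.98%), and the median log2 signal over all autosomal regions was also higher on the first array, 9.20 at 32 months and 9.22 at 3 months, against 8.25 at both ages on the second.

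Genes of embryonic patterning had the highest shares of members among the gene lists examined. Of 184 regions of developmental transcription factors 28 were members (15.2%), and of 40 Hox cluster regions 7 (17.5%), against 4.93% of all regions. The regions of developmental factors had a median CpG content of 2.60 per 100 probe bases, against 1.92 over all regions, and the part of base content in these shares was not tested. Of the 28, 12 were called higher at 32 months and none lower, where 12.3% and 2.60% of all members were. Onecut1, a factor of liver and pancreas development, had 18.81 at 32 months and 15.40 at 3 months, but a probe at 9.66 at 32 months. Isl1, a LIM homeobox factor, had 16.30 at 32 months and 14.58 at 3 months. Its log2 ratio was nevertheless 0.08, the median of probe ratios that ran from -0.37 to 1.91. Myod1, the muscle determination factor, had 12.36 at 32 months and 12.21 at 3 months, and Otx1, a factor of forebrain development, 13.36 at 32 months and 13.49 at 3 months, so the list held regions of similar signal at both ages too; this pair was picked after its values were seen. Hoxa11, which patterns limb and urogenital tract, had 17.20 at 32 months and 13.28 at 3 months. Hoxc10 had 15.85 at 32 months and 13.17 at 3 months, and Hoxc5 14.51 at 32 months and 12.35 at 3 months.

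Imprinted genes held 7 members among 49 regions (14.3%). Cdkn1c led at 3 months, followed by Gnas, which encodes the stimulatory G protein alpha subunit, with 17.33 at 32 months and 16.50 at 3 months. Grb10, a growth-restraining adaptor of insulin signalling, had 18.99 at 32 months and 15.19 at 3 months. It alone of the 7 imprinted members was called higher, where 12.3% of all members were. Mest, Nnat, Igf2 and Slc38a4 lay at 12.44 to 12.84 at 32 months and 12.39 to 13.48 at 3 months. H19, Snrpn and Peg3 had no region with 2 usable probes.

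Potassium and sodium channel genes held 11 members among 92 regions (11.96%), and 5 of them were called higher at 32 months, where 12.3% of all members were. Kcnk12, a 2-pore-domain channel, had 18.44 at 32 months and 13.58 at 3 months, and Kcnj3, an inward rectifier, 18.10 at 32 months and 13.92 at 3 months. Kcnma1, the large-conductance calcium-activated channel, had 14.53 at 32 months and 13.87 at 3 months. Histone cluster genes held 6 members among 40 regions (15%), of which H1f7, the spermatid linker histone, was the brightest with 15.17 at 32 months and 14.96 at 3 months, ahead of H2ac1 and H2bc13/H2ac13. Olfactory receptors were rare, with 3 of 368 regions (0.815%), namely Olfr368, Olfr544 and Olfr984. Olfr368 had 15.89 at 32 months and 17.21 at 3 months and was called lower. Probes of olfactory receptor regions had a median of 0 CpG per 100 bases.

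Germ cell and meiosis genes were near the share of all regions (4.93%), with 5 members of 79 (6.33%). None of the 5 was called higher or lower, where 12.3% and 2.60% of all members were. Stra8, described above, was not on this list. H1f7, which is also in the histone list, was followed at 3 months by Boll, a germ cell RNA-binding protein of the Dazl family, with 13.53 at 32 months and 13.72 at 3 months and probes of 8.35 to 18.90 at 32 months. Despite these medians the log2 ratio of Boll was 1.95. Its probe ratios ran from -0.20 to 1.98, so it was not called. The others were Fkbp6/Trim50, Stk31 and Cpeb1, at 12.11 to 12.89 at 32 months and 12.11 to 13.61 at 3 months. Ddx4 had a second region at 9.13 at 32 months and 9.42 at 3 months, Mael, of the piRNA pathway, had 9.16 at 32 months and 9.30 at 3 months, and Sycp3, of the synaptonemal complex, 6.00 at 32 months and 6.40 at 3 months. None of these was a member.

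In lists of genes that mark cells of the intestinal wall, the share of members lay around the 4.93% of all autosomal regions. It was 7.32% for intestinal epithelium, 6.06% for smooth muscle and stroma, 1.92% for immune cells and 3.70% for enteric neurons and glia. The intestinal epithelium list held 3 of 41 regions (7.32%): Gata6, an intestinal transcription factor, with 14.47 at 32 months and 13.81 at 3 months, Guca2a, and Chga, chromogranin A of enteroendocrine cells, with 12.32 at 32 months and 12.22 at 3 months. Villin, Vil1, had 9.89 at 32 months and 10.02 at 3 months and was no member, nor was the stem cell receptor Lgr5, with 12.60 at 32 months and 11.77 at 3 months. The smooth muscle and stroma list held 2 of 33 regions, Lmod1, leiomodin, with 16.05 at 32 months and 15.96 at 3 months, and Fn1, fibronectin, with 13.44 at 32 months and 12.92 at 3 months. The immune list held 1 of 52, Csf1r, the macrophage growth factor receptor, with 14.20 at 32 months and 13.72 at 3 months. The enteric neuron list held 1 of 27, Cartpt, a neuropeptide, with 19.58 at 32 months and 15.42 at 3 months, called higher. DNA signal cannot show which cells a tissue holds, so these lists are no check of the labelled tissue.

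None of the 34 housekeeping, 47 protocadherin, 57 vomeronasal and taste receptor, 40 serpin and 2 microRNA regions was a member. Of all autosomal regions 4.93% were members, and at that share lists of this size would hold few. Actb, beta-actin, had 8.40 at 32 months and 8.63 at 3 months, and Gapdh had no region with 2 usable probes. Zinc finger genes named Zfp held 11 members of 231 regions (4.76%), led by Zfp521 with 17.67 at 32 months and 17.60 at 3 months and followed by Zfp112 and Zfp385a. Solute carriers held 15 of 319 (4.70%), led by Slc25a34 and by Slc24a1/Ints14 with 17.10 at 32 months and 17.71 at 3 months, while Slc12a9 had 16.21 at 32 months and 14.23 at 3 months and was called higher. The lists of defensins (Defb25/Rem1, of 17 regions), chromatin genes (Pcgf2/Psmb3, of 43), cytochromes P450 (Cyp27a1, of 54), keratins (Krt6a, of 55) and cytosolic ribosomal proteins (Rpl26, of 84) held 1 member each. Their shares ran from 1.19% for ribosomal proteins to 5.88% for defensins. Krt6a was the brightest of these 5 members, with 14.49 at 32 months and 14.62 at 3 months. In all, 630 of the 732 members were in none of the lists.

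**Figure D5:**
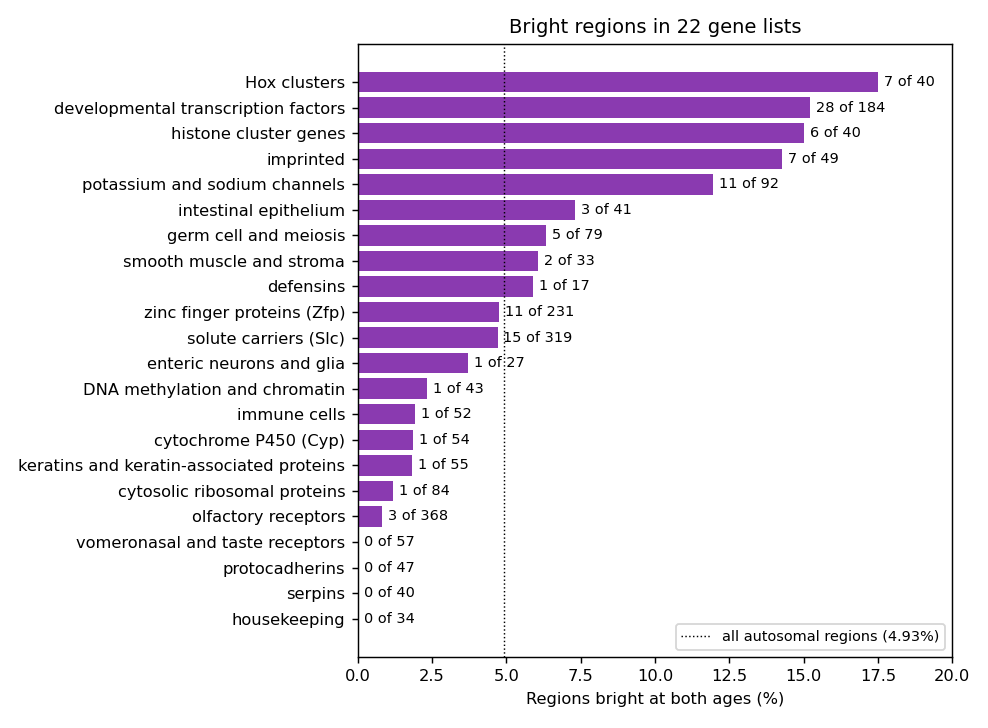
Share of regions bright at both ages (x axis, %) in the 22 gene lists with at least 15 regions, with the members and regions of each list as numbers and 4.93% for all autosomal regions dotted. Hox, developmental factor, histone, imprinted and channel lists lie between 11.96% and 17.5%, and olfactory receptors at 0.815%.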

How the data were processed

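The submitters' processing notes name Agilent Feature Extraction 9.1.3.1. Its processed signals are the intensity values analysed here; per the file headers they are free of background, detrended over the slide and, without lowess, brought to a common dye scale. Log2 signals and ratios were computed from them, and ratios were centred on each array's median (0.0044 and -0.14). Of 83122 probes, 39 flagged as outliers and 271 without a position were left out. Between 70.1% and 72.5% of probes per channel were well above background, and signal over background limits precision. The authors' value table equalled the processed signals within 1e-06 in 100% of spots. The identical scanner files of an array were used once per channel.

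Members and lists were chosen with earlier results of these data known. Named regions are the 12 brightest by the mean of both ages, the 6 largest and smallest ratios, the 5 highest and lowest CpG contents (each with at least 3 usable probes), the 3 brightest members of a list, 5 on each side of the threshold, and 12 fixed genes; others were picked after their values were seen. Of the members' names, 581 were current RefSeq symbols, 124 were updated, 26 kept the file's name and 1 had become a date. For 3 of 705 members with a RefSeq chromosome, Nt5dc3, Tcf3 and Zfp469, the files gave another chromosome, so these names are uncertain. Zfp469 is counted among the Zfp members. Region building, calls and motif counts were tested on simulated data. Python 3.11.15, pandas 2.3.3, statsmodels 0.14.6, R 4.3.3 and limma 3.58.1 were used.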

Additional observations from a re-analysis of the deposited data

Results flagged for a closer look

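On the X chromosome, which the autosomal set leaves out, 22 of 508 regions (4.33%) had a median log2 signal of at least 12 at both ages, above all negative control spots. The autosomal regions of the same array gave 3.98%. None of the 22 was called higher and 3 were called lower at 32 months, namely Mid1ip1, Mbnl3 and Pdzd4, with log2 ratios of -4.85, -4.64 and -3.90. Of the 291 autosomal members of that array 50 (17.2%) were called higher and 7 (2.41%) lower. Over all its autosomal regions the shares were 2.76% and 0.451%, while calls over all X regions are not given here. The median log2 ratio was -0.07 over all X regions and 0.09 over those autosomal regions. The sex of the animals is not stated, so on the X a difference in sex between the samples cannot be told apart from age. None of the 9 Y regions was bright. With 1 sample per age and array, no group was large enough to test for a sample far from the others.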

How the results depend on the processing

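The count of 732 became 143 with normexp, 1559 with a threshold of 11 and 309 with a threshold of 13; array 1 alone held 441 and array 2 held 291. The 90 called higher (12.3% of members) became 44 with normexp (30.8%) and 45 with a threshold of 13 (14.6%). Array 1 held 40 of them (9.07%) and array 2 held 50 (17.2%). Of all regions 2.05% were called higher, 2.82% with normexp, 1.36% on array 1 and 2.76% on array 2. The 19 called lower (2.60% of members) became 0 with normexp and 9 with a threshold of 13 (2.91%). Array 1 held 12 of them (2.72%) and array 2 held 7 (2.41%). Of all regions 0.519% were called lower, 0.054% with normexp, 0.585% on array 1 and 0.451% on array 2. The median log2 ratio was 0.60 with normexp, where all regions had 0.11, 0.16 with channels scaled to the same 75th percentile, 0.040 and 0.14 with thresholds of 11 and 13, 0.14 with means over probes, 0.054 uncentred, and 0.031 and 0.25 on arrays 1 and 2. The median CpG content was 1.45 with normexp, 2.76 with a threshold of 11 and 2.00 with 13. The share of windows with CCCGGG, whose alternatives were chosen after seeing the data, was 35.2% with normexp and 50% on array 2. Counts with another threshold or on 1 array follow in part from the number of regions kept; the cause of the other changes was not tested. Scaling all channels to the same 75th percentile kept 597 of the 732 members among 694 regions. No paired analysis was possible because each age has 1 sample per array. Brightness depends on probe and labelling as well as on the DNA, dye and age cannot be told apart, and signals near background limit the dim probes of a region.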
